A study of Mus musculus with 3 samples.

Results

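The genes described here encode the proteins of the cytosolic ribosome, read in the mRNAs carried by apoptotic bodies (ABs) of cells on the way to the osteoclast, the cell that resorbs bone. The members are the protein-coding genes of the GENCODE M21 annotation (mouse genome GRCm38) whose symbol starts with Rpl, for the large 60S subunit, or Rps, for the small 40S subunit. The kinases with symbols starting Rps6k and the genes Rps19bp1 and Rpl7l1, which are not ribosomal proteins, were left out. There were 86 such genes, 52 of the large and 34 of the small subunit, with 454 transcripts, among 15844 genes and 56651 transcripts in the mRNA table. The annotation has 90 genes that meet the rule, and the other 4 (Rpl10l, Rpl36-ps4, Rpl39l and Rpl9-ps1) were not analysed here. All 77 standard ribosomal protein symbols of the list were among the members.

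The study compared ABs of 3 stages, with 1 library each. Bone marrow macrophages (BMMs) were grown from C57BL/6 mice at 11 weeks of age with M-CSF, a macrophage growth factor, at 50 ng/ml for 72 h. Preosteoclasts (pOCs) were BMMs given RANKL, the cytokine that drives osteoclast formation, at 100 ng/ml with M-CSF at 30 ng/ml for 24 h. Mature osteoclasts (mOCs) had the same for 72 h or longer. These times and doses are those of the sample labels. The study's text gives a shorter M-CSF culture for BMMs, a higher M-CSF dose with RANKL and a later time for mOCs. According to the sample labels, all cells, BMMs included, received alendronate at 500 μM for 12 h to make them shed ABs, whereas the study's methods name staurosporine. The labels name the cells and the series description names the ABs, and the libraries are called BMM-ABs, pOC-ABs, mOC-ABs here. Wherever 3 values stand in a row they follow that order. The preparation is enriched for ABs and not free of debris or smaller vesicles by the study's own account. With 1 library per condition nothing separates a difference between stages from a difference between any 2 preparations, so no test was made. Every interval below is an exact 95% interval that covers counting error only. Comparison G1 set pOC-ABs against BMM-ABs, G2 set mOC-ABs against BMM-ABs and G3 set mOC-ABs against pOC-ABs, and each pair of them shares a library.

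The mRNA table held 9100082, 7387317 and 7705592 reads. The summed level of 6 macrophage markers was 5212, 2469 and 1613 RPM (reads scaled to 1000000 reads of the mRNA table), and that of 9 osteoclast markers 345, 581 and 1870, so the libraries followed their labels. The listed B cell (2 of 4), stromal (3 of 5) and endothelial (3 of 3) markers summed to at most 6.10 RPM in any library, while the neutrophil and erythroid markers were not analysed here. Mitochondrial genes took 2.90%, 5.76% and 2.87% of the reads, and an annotated copy of the 7SL RNA locus (Gm47299) took 0.233%, 0.448% and 0.342%. Both were highest in pOC-ABs.

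A ribosome carries 1 copy of nearly every ribosomal protein, and cells make these proteins in matched amounts. Most of their mRNAs begin with a C followed by a run of pyrimidines, the 5' terminal oligopyrimidine (TOP) tract, through which growth signals such as mTOR control their translation together. Their messages are among the most abundant and the most stable in a cell. This abundance is thought to be why the mouse genome holds so many processed pseudogenes of these genes, intronless copies made by reverse transcription of the mRNA. A read from such an mRNA often fits several places in the genome.

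The following sequences show how closely some members resemble their copies. They are 60-base stretches of the coding sequence beside the same stretch of the copy, in GENCODE M21 transcripts (for the gene, the coding transcript with the most reads), with capitals at the bases that differ. Stretches are counted from the start codon and, for pairs that differ, were placed to hold at least 1 of the differences. The first pair is Rpl21, a 60S protein gene on the plus strand at chr5:146832890-146837032, and the processed pseudogene Gm10240 at chr15:68309819-68310301, which differ at 2 of 480 coding bases.
Rpl21, coding bases 306 to 365: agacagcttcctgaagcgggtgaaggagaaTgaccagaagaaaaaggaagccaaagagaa
Gm10240: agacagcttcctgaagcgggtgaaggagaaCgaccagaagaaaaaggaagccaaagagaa
The second pair is Rps13, a 40S protein gene at chr7:116331505-116334195 on the minus strand, and Rps13-ps1 at chr8:87047689-87048226, with 2 differences over 453 coding bases.
Rps13, coding bases 381 to 440: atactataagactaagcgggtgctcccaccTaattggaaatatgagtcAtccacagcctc
Rps13-ps1: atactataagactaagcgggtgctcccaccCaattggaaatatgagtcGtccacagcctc
The third is Rpl15, a 60S protein gene at chr14:18267823-18271391 on the minus strand, and Gm4294 at chr12:12023045-12023658, with 1 difference over the 610 bases they share.
Rpl15, coding bases 553 to 612: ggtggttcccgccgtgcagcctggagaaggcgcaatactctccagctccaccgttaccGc
Gm4294: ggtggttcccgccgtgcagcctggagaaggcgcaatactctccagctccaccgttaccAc
The last pair is Rps27, a 40S protein gene on chromosome 3, and the intronless gene Rps27rt at chr9:114982366-114982739, which the annotation calls protein-coding. Their coding sequences of 252 bases were identical.
Rps27 and Rps27rt, coding bases 1 to 60: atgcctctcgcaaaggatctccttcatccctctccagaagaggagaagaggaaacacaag
In the table Gm10240 held 2327, 2275 and 2548 reads, against 49, 48 and 18 for Rpl21. Gm4294 held 6290, 5820 and 6436 reads against 538, 1689 and 1773 for Rpl15. In both pairs the nearly identical copy, and not the intron-containing gene, held most of the reads in every library.

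The 86 genes together took a larger share of the mRNA reads in the osteoclast-lineage ABs than in BMM-ABs. They held 291022 of the reads of BMM-ABs, a share of 3.20% (3.19% to 3.21%). In pOC-ABs they held 278114, a share of 3.76% (3.75% to 3.78%), and the share was highest in mOC-ABs, with 301407 reads or 3.91% (3.90% to 3.93%). Large subunit genes went from 1.75% to 2.11% and 2.20%, and small subunit genes from 1.45% to 1.66% and 1.71%, so both subunits moved the same way. Of the reads on nuclear protein-coding genes alone, which leaves out the mitochondrial genes, the shares were 3.64%, 4.54% and 4.57%. When lncRNA reads were added to the denominator, the pOC-AB share of 2.34% was close to the 2.29% of BMM-ABs. The lncRNA table held 4478015 reads in pOC-ABs against 3634682 and 3851365 in the others, and the part of this in the result was not tested. In such bulk libraries, fewer bodies of a kind and less RNA per body cannot be told apart.

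**Figure D1:**
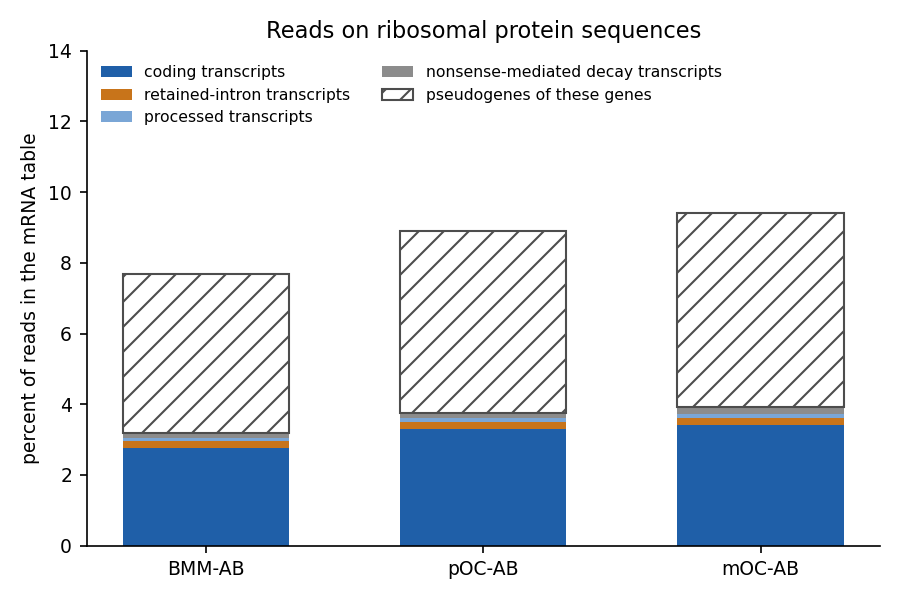
Percent of all reads in the mRNA table (y axis) that fell on transcripts of the 86 ribosomal protein genes, by transcript type, and on their pseudogenes (hatched), for the 3 libraries (x axis, 1 bar each). The genes reach 3.20%, 3.76% and 3.91%, and the pseudogenes add 4.48%, 5.14% and 5.50%.

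Pseudogenes held more of these reads than the genes. In all, 362 annotated pseudogenes shared at least 20% of their 50-base stretches with coding transcripts of a member, and each was assigned to 1 gene family, meaning the gene, its near-identical protein-coding copies and its pseudogenes. They fell into 72 of the 81 families. Of 121 pseudogene transcripts named after a ribosomal protein gene, 120 were assigned to the family in their name. These pseudogenes held 407746, 379847 and 424079 reads, or 58.4%, 57.7% and 58.5% of the reads on genes and pseudogenes together. With a minimum of 50% shared stretches the shares were 54.2%, 53.5% and 54.1%. The split was thus nearly the same in the 3 libraries.

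The level listed for a single gene depended on this split. Per base of coding sequence, the summed reads of the 77 standard genes spanned 44.8-fold from the 10th to the 90th percentile when each gene was counted alone and 3.93-fold when its family was summed. The family sums were thus the more even ones, and where the reads listed under pseudogenes came from was not tested. Over 85 members, the Spearman correlation between the share of the coding sequence found in other genes (median 90.3%) and the mean FPKM was -0.42, a description across genes that are not independent.

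**Figure D2:**
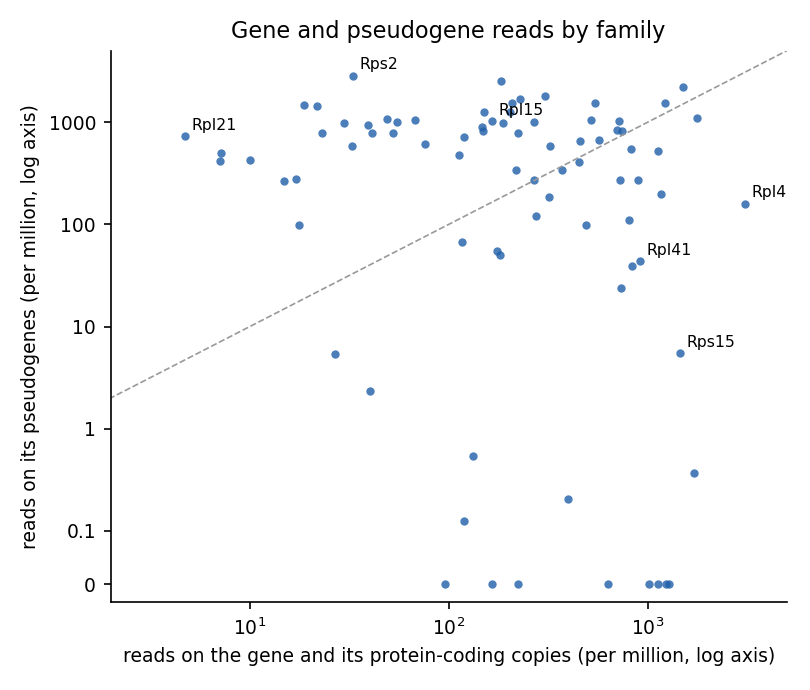
RPM on each gene with its protein-coding copies (x axis, log scale) and on its pseudogenes (y axis, log scale, with families without pseudogene reads drawn at 0), summed over the 3 libraries, for families of at least 20 reads. Points above the dashed line of equality had more reads on pseudogenes, with Rpl21 and Rps2 at the upper left and Rpl4 and Rps15 on the right.

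The members with the highest mean FPKM either had at most 4.90% of their family's reads on pseudogenes or had no introns. Rps15, of the 40S head, had FPKM (reads per kilobase of transcript, scaled by library) of 2467, 3374 and 2529, and 0.377% of its family's reads were on pseudogenes. Rplp1, an acidic protein of the P-stalk to which elongation factors bind, had 1807, 2858 and 3175. Rpl32 followed with 1832, 2091 and 2452, and Rpl4, a large subunit protein that lines the exit tunnel, with 1792, 2030 and 2320. Rps12-ps3 had 1935, 2180 and 2552 and is annotated as protein-coding despite its name. Its coding sequence was identical over 396 bases to that of Rps12, so reads within it cannot be told apart between the genes.

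The members with the lowest mean FPKM (Rpl21, Rps13, Rpl36a-ps1, Rpl30 and Rps29) all had at least 94.2% of their family's reads on pseudogenes. Rpl21 had FPKM of 5.27, 6.72 and 2.21 and 38 pseudogenes. Rps13 had 65, 55 and 54 reads beside 3536, 4318 and 4145 on its 5 pseudogenes. Rps29, 1 of the smallest 40S proteins, had 43, 66 and 63 reads beside 2753, 3903 and 3399. Low values of these 5 genes therefore say little on the level of their mRNAs.

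Between libraries most members moved together by a small amount. The filter of at least 20 reads over the 3 libraries left 85 members and leaves out Rpl3l, the heart and muscle paralog of Rpl3, which had 5, 4 and 8 reads. On the scale of read shares, the 85 genes had median log2 ratios of 0.29, 0.32 and -0.02 in G1 to G3, beside -0.05, -0.09 and -0.05 over the 10986 protein-coding genes that passed the same filter. In the same order the ratio was above 0 for 75, 75 and 39 members, against 46.4%, 42.1% and 44.9% of all these genes. Relative to the median of all genes, which does not depend on the scaling, members were higher by 0.34, 0.41 and 0.03. Scaling by the mRNA and lncRNA reads together moved the median of all genes in G1 to -0.25 and that of the members to 0.095, with 54 of 85 above 0.

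**Figure D3:**
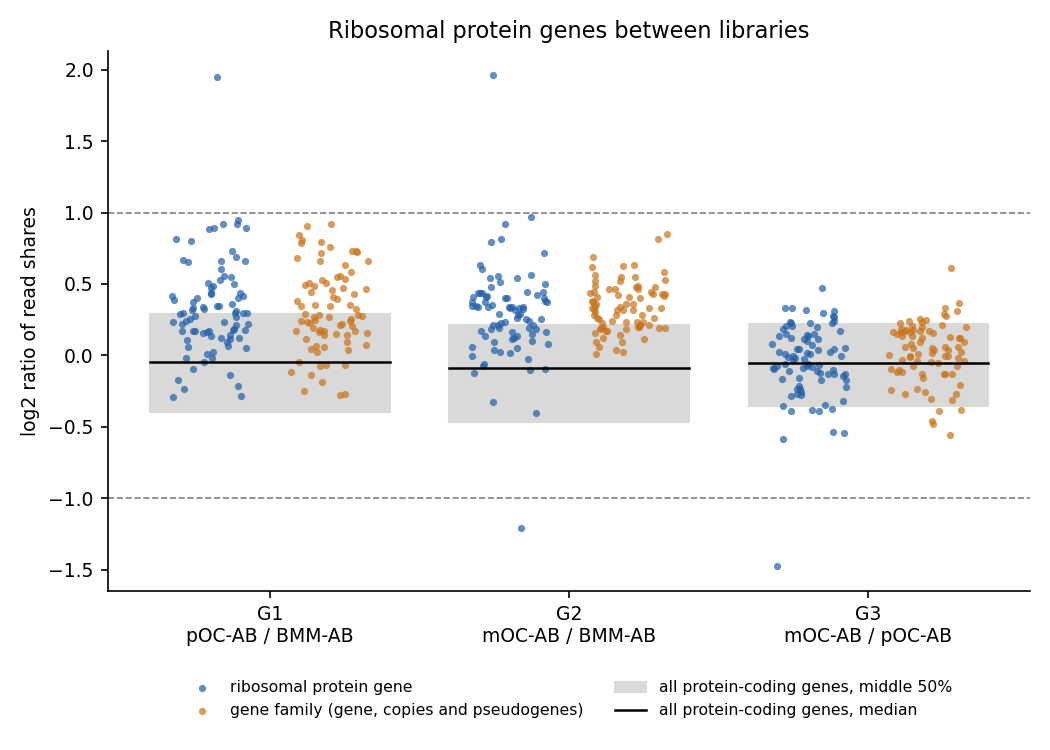
The log2 ratio of read shares (y axis) of each member gene (blue) and each gene family (orange) in G1, G2 and G3, with the interquartile range (grey band) and median (black line) of all 10986 protein-coding genes and dashed lines at 2-fold. Rpl15 stands above the 2-fold line in G1 and G2 and Rpl21 below it in G2 and G3 as genes, while no family lies past it.

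Few members differed by more than 2-fold. In G1 there was 1 (Rpl15, higher), in G2 there were 2 (Rpl15 higher and Rpl21 lower) and in G3 there was 1 (Rpl21, lower), while 9.34%, 12.4% and 9.28% of all protein-coding genes were past 2-fold. Read depth was not matched here, and 84 of the 85 members had at least 100 reads over the 3 libraries. With coding transcripts only the counts were 5, 7 and 4, and with the nuclear protein-coding reads as the total G1 had 4. Counted as families, 0 of 80 were past 2-fold in any comparison, and with that other total the Rpl22l1 family reached a log2 ratio of 1.002 in G1. In G1 the family ratios ran from -0.28 to 0.92, in G2 from 0.01 to 0.85, in G3 from -0.56 to 0.61. All 80 were above 0 in G2, and 74 were with the lncRNA reads in the total.

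Both genes past 2-fold lost the difference at the family level. Rpl15 had 538, 1689 and 1773 reads, with BMM-ABs the low library. The log2 ratios were 1.95 (1.81 to 2.09) in G1 and 1.96 (1.82 to 2.10) in G2. Its family had 8780, 9694 and 10389 reads, for 0.44 and 0.48. Rpl21 had 49, 48 and 18 reads, lowest in mOC-ABs. Its log2 ratio was -1.20 (-2.07 to -0.40) in G2 and -1.48 (-2.35 to -0.67) in G3. The Rpl21 family had 5878, 5779 and 6194 reads, for 0.32 in G2 and 0.039 in G3, which is the opposite direction.

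Among the genes chosen for their role, the P-stalk genes, counted as single genes, were higher in pOC-ABs and mOC-ABs than in BMM-ABs under each scaling tried. Rplp1 had 8205, 10536 and 12207 reads, with log2 ratios of 0.66 (0.62 to 0.70) in G1 and 0.81 (0.77 to 0.85) in G2. It has 0 assigned pseudogenes, although 60.4% of the 50-base stretches of its coding sequence also occur in other genes. Rplp2, the other acidic stalk protein, had 2912, 3408 and 3251 reads and ratios of 0.53 and 0.40. Rplp0, the base of the stalk, had 12255, 12044 and 12050 reads and ratios of 0.28 and 0.22, with 59.5% of its family's reads on pseudogenes. The Rplp0 family had 0.17 and 0.23, and with the lncRNA reads in the total its G1 ratio turned slightly negative.

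Of the other members chosen for a known function, Rpl5, Rpl11, Rps19, Rpsa and Rps6 had lower ratios than Rplp1 and Rplp2 as single genes. This held in both G1 and G2. Rpl5 and Rpl11 form a particle with 5S rRNA that binds Mdm2 when ribosome assembly fails. Rpl5 had 2112, 2102 and 2265 reads, with 0.29 (0.21 to 0.38) in G1 and 0.34 in G2, and Rpl11 had 479, 415 and 372, with intervals that include 0 in both. Rps19, the gene most often mutated in Diamond-Blackfan anaemia, had 3027, 2772 and 3138 reads and ratios of 0.17 and 0.29. The Rps19 family, with 48.1% of its reads on pseudogenes, had 0.54 and 0.41. These lay slightly above the 0.53 and 0.40 of the Rplp2 family. Rpsa, also known as the laminin receptor, had 15159, 12404 and 15145 reads and ratios of 0.01 and 0.24. Rps6, whose protein is the classical substrate of S6 kinase, had 2034, 1421 and 2060 reads, lowest in pOC-ABs, and the highest member ratio in G3, 0.47 (0.38 to 0.57). The family of Rps6 had 17086, 12777 and 16277 reads, of which 88.0% were on pseudogenes, and was also lowest in pOC-ABs by share.

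Paralogs that can replace a standard protein were listed for several genes. Rps27l, a p53 target and paralog of Rps27, had 786, 1110 and 983 reads, highest in pOC-ABs, with 0.80 (0.67 to 0.93) in G1. Rps27 and Rps27rt together had 4322, 5626 and 5358. Rpl22 had FPKM of 85.4, 115 and 129, and its paralog Rpl22l1 had 29.1, 56.0 and 41.0 with 181, 271 and 194 reads, for 0.88 (0.61 to 1.16) in G1 and -0.54 (-0.82 to -0.27) in G3. Rpl36al, an intronless paralog of Rpl36a, had 721, 860 and 744 reads beside 99, 109 and 117 for Rpl36a. Rps4x had 6645, 5055 and 5948 reads and a G1 ratio of -0.09.

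Fau and Rack1 encode proteins of the ribosome but carry other symbols and stand outside the rule. Fau encodes a fusion of a ubiquitin-like protein and eS30, and Rack1 a scaffold on the 40S head. Fau had 6864, 7367 and 7884 reads, with 0.40 in G1 and 0.44 in G2. Rack1 had 12267, 9274 and 12629 reads, with -0.10 and 0.28. In G2 both lay above 0, as did the median of the members.

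Within the families, the ratio to BMM-ABs went with the length of the coding sequence. Over 80 families the Spearman correlations between coding length and log2 ratio were -0.69, -0.61 and 0.46 in G1 to G3. In G1 the 27 families with up to 400 coding bases had a median of 0.66 and the 53 longer ones 0.18. In G2 the medians were 0.46 and 0.26. The highest in G1 were Rpl22l1 with 0.92, Rpl41, which encodes the shortest ribosomal protein, with 0.91, Rpl36 with 0.84 and Rps29 with 0.81. The lowest were Rpl12 with -0.28, Rps14 with -0.27, Rps2 with -0.25 and Rpl7a with -0.19.

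The same direction was seen in other genes, so it was not particular to ribosomal proteins. Over 10836 other protein-coding genes the G1 correlation was -0.26, with a median of 0.37 for the 561 with up to 400 coding bases and -0.07 for the rest. Among those of at most 1300 coding bases, close to the range of the members, the medians were 0.37 and 0.04 in G1 and 0.17 and -0.05 in G2. These correlations are across genes of the same 2 libraries and carry no p-value. The size of the RNA fragments in each preparation was not analysed here, and its part in the result was not tested.

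**Figure D4:**
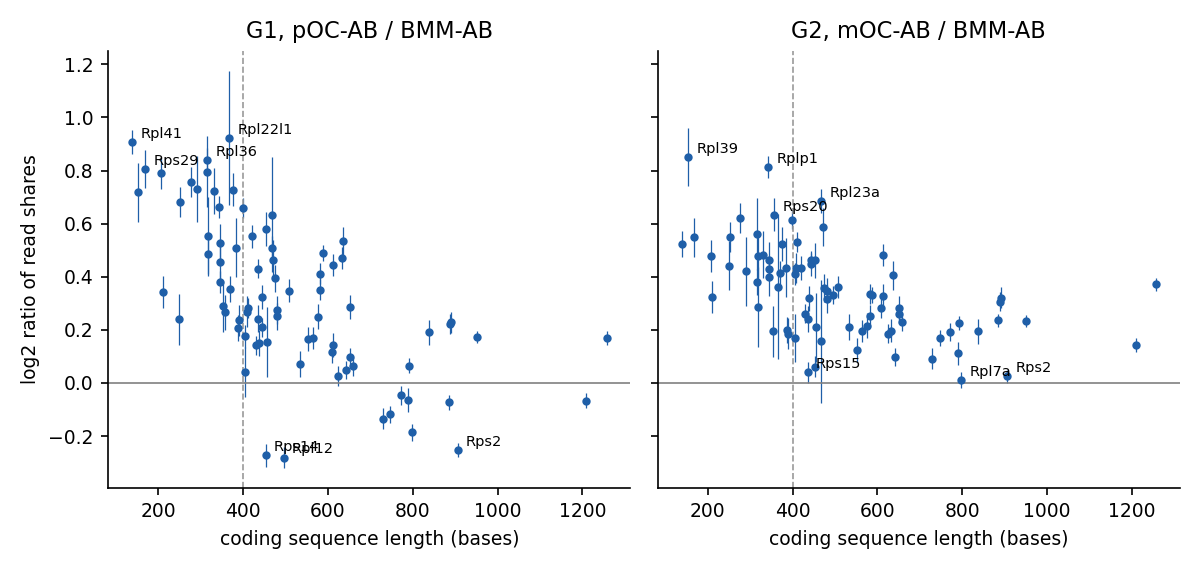
The log2 ratio of read shares (y axis, with counting intervals) against the length of the coding sequence in bases (x axis) for 80 ribosomal protein families in G1 (left) and G2 (right), with a dashed line at 400 bases. In G1 the ratios go from 0.91 for Rpl41, the shortest, to 0.17 for Rpl4, the longest, and the lowest is -0.28 for Rpl12 at 495 bases. In G2 they are flatter and all above 0.

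Next, coding transcripts were compared with those that keep an intron. Of the 454 transcripts, 211 were coding, 168 of the retained-intron type, 53 processed transcripts without an open reading frame and 22 predicted targets of nonsense-mediated decay (NMD). Summed over the members, retained-intron transcripts held 6.18% (6.09% to 6.27%), 5.73% (5.64% to 5.82%) and 5.60% (5.51% to 5.68%) of the reads on coding and retained-intron transcripts. Other protein-coding genes had 6.19%, 5.23% and 4.61%. In the large subunit the share was 6.41%, 6.26% and 4.76%, and in the small subunit 5.92%, 5.11% and 6.59%. The mOC-ABs were thus the lowest library for 1 subunit and the highest for the other. Much of the small subunit difference lay in 1 gene, Rps26, named after its values were seen. It held 1317, 748 and 2066 of the 7555, 6030 and 8396 retained-intron reads of that subunit. Within Rps26 the share was 29.5%, 16.5% and 43.0%. Without 2 transcripts chosen after their values were seen, Rpl7-202 and Rpl15-206, the shares of the members were 5.75%, 5.24% and 5.42%.

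The median of single genes was above the share in the sum, which also counts members without a retained-intron transcript. Among the 57 members with at least 100 reads in every library and a retained-intron transcript, the median share was 11.2%, 8.06% and 10.04%, beside 6.21%, 4.84% and 3.99% over 4777 genes chosen the same way. The share differed by more than 10 percentage points between libraries in 14 of the 57, or 24.6%, and in 25.8% of all such genes. A share near that of all genes is no finding on the members.

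The genes with the largest differences, chosen by these values, had high shares in different libraries. Rpl15 had 11.0%, 79.9% and 29.6% of its reads on the retained-intron transcript. Rpl3, which encodes a protein near the peptidyl transferase centre, had 70.0%, 17.1% and 39.5%. Rpl37a had 47.9%, 79.5% and 61.4%. Rpl5 had 11.4%, 40.5% and 23.5%. Rpl15, Rpl37a and Rpl5 were highest in pOC-ABs, whereas Rpl3 was lowest there. The other members with the highest shares over all libraries were Rps18 with 83.5%, 81.6% and 70.3%, Rps27 with 81.5%, 71.8% and 72.6% and Rpl35a with 62.9%, 45.6% and 33.9%. All 3 genes had few reads, with 149, 154 and 126 for Rps18 and 124, 125 and 109 for Rpl35a. Rps27 had 108, 103 and 106, since the identical Rps27rt held nearly all reads of that family. Pseudogenes held 93.3% of the reads of the Rpl3 family, 88.9% for Rpl37a, 86.1% for Rpl15, 79.0% for Rpl5, 84.8% for Rps18 and 94.7% for Rpl35a, and their part in the shares was not tested.

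The following boundaries show what such a transcript holds. Each has 30 bases of exon in lower case and 30 of intron in capitals, read from the retained-intron transcript in its own direction. Rpl7-202 is a transcript of 784 bases that keeps the whole intron of 175 bases at chr1:16103335-16103509 (minus strand). Rpl3-204 keeps the whole intron of 583 bases at chr15:80081032-80081614 (minus strand). Both introns start with GT and end with AG.
Rpl7-202, exon then intron: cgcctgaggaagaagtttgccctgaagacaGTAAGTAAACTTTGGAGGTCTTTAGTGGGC
Rpl3-204, exon then intron: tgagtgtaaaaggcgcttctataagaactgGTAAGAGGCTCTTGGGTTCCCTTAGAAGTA
Rpl15-206 and Rpl5-204 start inside an intron and run into the next exon, at the end of the introns chr14:18270044-18270278 (minus strand) and chr5:107903869-107904716 (plus strand).
Rpl15-206, intron then exon: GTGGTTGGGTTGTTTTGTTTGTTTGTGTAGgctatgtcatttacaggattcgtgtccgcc
Rpl5-204, intron then exon: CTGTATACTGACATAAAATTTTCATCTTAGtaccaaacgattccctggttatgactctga

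Single transcripts differed far more between libraries than their genes. Of 374 transcripts of members with at least 20 reads, 92 were past 2-fold in G1 (24.6%), 111 in G2 (29.7%) and 95 in G3 (25.4%), and 37.1%, 39.1% and 36.7% of all transcripts of protein-coding genes were. Of the 129 retained-intron transcripts of members, 41, 43 and 41 were past 2-fold, against 43.7%, 48.5% and 43.5% of all retained-intron transcripts. In 55 genes in G1, and in 51 each in G2 and G3, the gene sum was within 2-fold while at least 1 transcript was not. No such count over all protein-coding genes is given here, so these counts are no finding on the members. How reads were divided among overlapping transcripts is not given in the sources used here, and transcripts of 1 gene share most of their exons.

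Rpl15 showed what this did to a gene sum. Rpl15-206, the retained-intron transcript, had 59, 1349 and 525 reads, and its G1 log2 ratio was 4.82 (4.44 to 5.22). The 4 coding transcripts summed to 479, 340 and 1248, lowest in pOC-ABs. Their ratios were -0.19, 1.62 and 1.82 in G1 to G3. The gene ratio of 1.95 in G1 therefore rested on the retained-intron transcript. The ratio in G2 remained above 2-fold with coding transcripts alone.

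Rpl7, Rpl7a and Rpl3 each had a transcript past 2-fold while the gene sum was not. Rpl7-202 had 1159, 2 and 0 reads, where the 0 of mOC-ABs allows up to 3.89e-05% of the table. Its log2 ratio was -8.88 (-11.93 to -7.02) in G1, and against the floor of 3 reads it was at least 327-fold lower in mOC-ABs. The coding transcript Rpl7-201 had 5132, 5751 and 6088 reads. Rpl7a, a 60S protein gene, had 5285, 3640 and 4170 reads in all, of which the processed transcript Rpl7a-204 held 4378, 2797 and 1885 and Rpl7a-205 held 12, 15 and 1918. The gene sum had a log2 ratio of -0.24 (-0.30 to -0.18) in G1, 1 of the lowest among the members. The coding Rpl7a-201 had 645, 654 and 109 reads, lowest in mOC-ABs. Rpl3-204 had 841, 73 and 371 reads and the coding Rpl3-201 294, 779 and 570, so that the 2 stood in opposite order over the libraries.

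**Figure D5:**
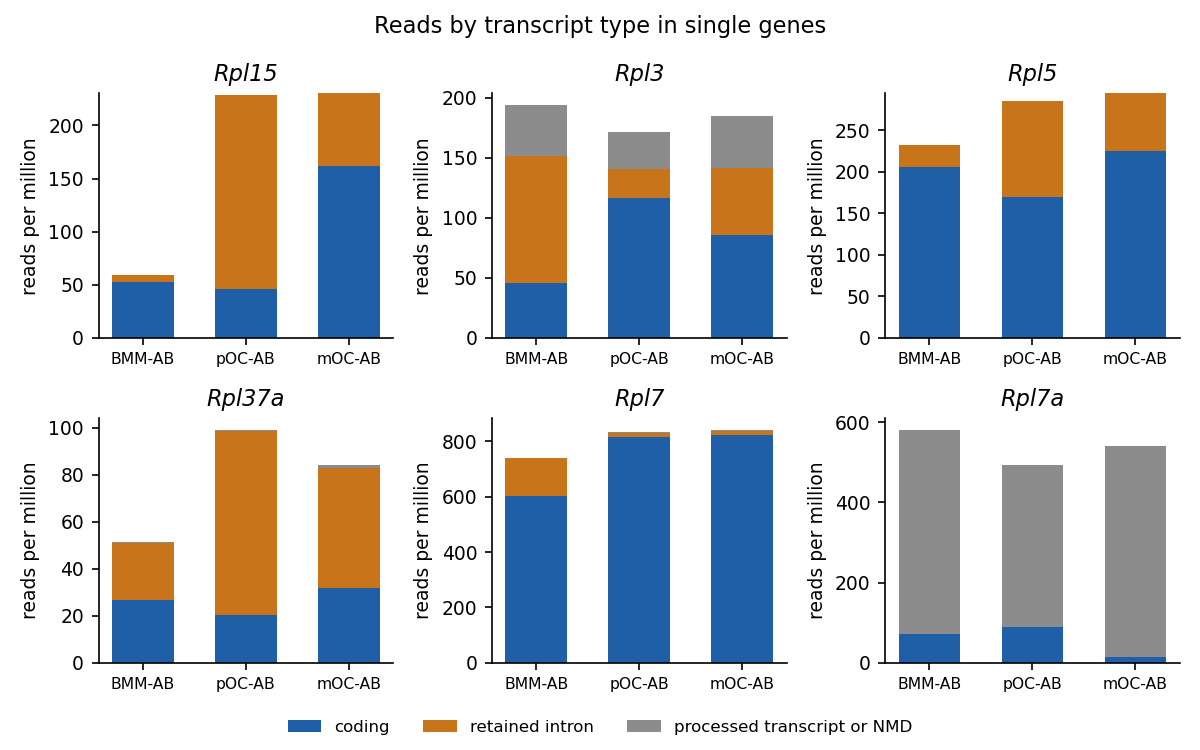
RPM (y axis, from 0, each panel with its own range) in each library (x axis) for 6 genes, stacked by transcript type (coding, retained intron, and processed transcript or NMD). The retained-intron part is highest in pOC-ABs for Rpl15, Rpl5 and Rpl37a and in BMM-ABs for Rpl3 and Rpl7, and Rpl7a is mostly processed transcript in all 3.

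Transcripts that stood highest in 1 library over both others were named by a fixed rule, and their difference is what chose them. For BMM-ABs they included the retained-intron transcripts Rpl7-202 and Rpl41-207 with 41, 3 and 7 reads, and the coding transcripts Rps2-208 with 83, 0 and 0, Rps12-206 with 6, 0 and 0 and Rps14-203 with 1215, 108 and 256. For pOC-ABs they included the retained-intron transcripts Rps9-206 with 1, 29 and 2 reads, Rps24-204 with 24, 77 and 21 and Rpl21-206 with 1, 4 and 0, and the coding transcripts Rpl36a-201 with 7, 25 and 9 and Rps27a-202 with 43, 119 and 49. For mOC-ABs they included the retained-intron transcripts Rpl13a-213 with 43, 31 and 195 reads and Rps10-204 with 6, 4 and 14, and the coding transcripts Rps10-202 with 0, 0 and 14, Rpl15-204 with 33, 24 and 143 and Rps28-202 with 0, 0 and 4. Several of these rest on few reads, and of those given here only Rpl7-202, Rps14-203, Rpl13a-213, Rpl15-204 and Rps27a-202 reached 100 reads in any library. Against BMM-ABs, Rps2-208 was lower in pOC-ABs by at least 22.5-fold (against the same floor), and another coding transcript of the gene, Rps2-207, had 0, 78 and 66 reads.

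The promoters of the members were searched for letters they share, and a link to the ratios was not tested. RefSeq promoters (GRCm38.p6, 250 bases before to 50 after the start) matched 62 of the 86 members by symbol. A run of at least 5 pyrimidines that begins with C, on the gene's strand and within 10 bases of the RefSeq start, was found in 33 of the 62 (53.2%), in 31.7% of 9639 listed protein-coding genes and in 28.8% of all 27025 genes with a promoter. The letters ACTTCCG, contained in binding sites of ETS factors, stood on either strand in 35.5% of the members and 15.4% of the listed genes. The letters GGGCGG, contained in Sp1 sites, stood on either strand in 61.3% and 67.7%, and TATAAA on the gene's strand in 9.68% and 5.23%. A match describes letters and is not a site.

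Windows of 40 bases before to 20 bases after the RefSeq start are shown for members named above. Capitals mark the part of the pyrimidine run within 10 bases of the start, where the search ended. In Rpl15 more pyrimidines follow the capitals. In Rpl7a more precede them, and the longer run there begins with T.
Rpl15, chr14:18270967-18271026, minus strand: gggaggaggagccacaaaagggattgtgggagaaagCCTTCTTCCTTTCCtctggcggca
Rpl7a, chr2:26910767-26910826, plus strand: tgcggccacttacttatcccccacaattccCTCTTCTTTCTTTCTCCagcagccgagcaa
Rpl35a, chr16:33056442-33056501, plus strand: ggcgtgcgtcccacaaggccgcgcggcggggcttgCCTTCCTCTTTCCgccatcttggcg
Rps18, chr17:33955646-33955705, minus strand: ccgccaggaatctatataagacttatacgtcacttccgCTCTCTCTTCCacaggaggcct
Rps27, chr3:90213629-90213688, minus strand: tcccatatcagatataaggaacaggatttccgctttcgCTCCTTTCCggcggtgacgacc
Rps2, chr17:24720023-24720082, plus strand: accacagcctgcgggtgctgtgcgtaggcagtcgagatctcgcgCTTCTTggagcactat
The run spans the start in Rpl15, Rpl7a, Rpl35a, Rps18 and Rps27, and in Rps2 it lies after it. Among these 6 families the G1 ratio ranged from -0.25 for Rps2 to 0.72 for Rpl35a.

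Other genes of translation were compared with the members, whose medians were 0.29, 0.32 and -0.02 in G1 to G3. Over 5 elongation factor genes the median log2 ratio was 0.27 in G1 and 0.29 in G2, over 13 genes of initiation factor eIF3 0.22 and 0.30, and over 7 other mRNAs known to carry a TOP tract 0.32 and 0.34. Over 16 genes of ribosome biogenesis it was 0.06 in G1, with 9 of 16 above 0, and 0.27 in G2. In G3 the elongation and biogenesis genes had medians of 0.24 and 0.22, above that of the members, and eIF3 and the TOP mRNAs had 0.046 and 0.10. The number past 2-fold was 1 of 13 for eIF3 in G1, Eif3j1 with 287, 512 and 332 reads, and 1 of 7 for the TOP mRNAs in G2, Nap1l1 with 321, 326 and 623 reads, and 0 for the elongation and biogenesis genes. Eef1a1, the elongation factor that brings tRNAs to the ribosome, had 92919, 90936 and 112290 reads, for 0.27 and 0.51. Eef2, which moves the ribosome along the mRNA, had 80013, 53971 and 72864, lowest in pOC-ABs, for -0.27 and 0.10. The medians of these lists were above the -0.05 and -0.09 of all protein-coding genes in both comparisons.

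Many ribosomal protein genes carry small nucleolar RNAs (snoRNAs), which guide the modification of rRNA, in their introns. Here 30 members host 58 annotated snoRNAs, of which 54 were listed in the mRNA table, with 345, 526 and 510 reads, or 37.9, 71.2 and 66.2 RPM. One more, Gm26448 in Rpsa, was listed in the lncRNA table with 234, 510 and 464 reads, and the 55 together had 579, 1036 and 974 reads. Snord15a and Snord15b, both in introns of Rps3, had 52, 143 and 124 and 50, 114 and 108 reads, lowest in BMM-ABs. The host genes had a median log2 ratio of 0.18 in G1 and 0.25 in G2, and the 55 tested members without a snoRNA 0.34 and 0.33. Libraries from RNA bound to poly-T beads are not made to capture snoRNAs, so these reads are a small and selected part.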

How the data were processed

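Total RNA of the ABs was bound to poly-T beads and sequenced as paired-end libraries, per the study's methods. HISAT2, StringTie and GRCm38 are named in the submitters' processing notes, without versions. The authors deposited read counts and FPKM (reads per kilobase of transcript, scaled to the mRNA table) for each mRNA and lncRNA transcript, and circRNA junction read counts with a signal scaled per library (SRPBM), which was not used. No per-sample column was left unmapped (0).

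GENCODE M21 gave the gene of each transcript, and counts were summed per gene and divided by the total of the mRNA table. Differences past 2-fold, the limit of the study, were called among features with at least 20 reads over the 3 libraries. For 0 reads the limit was a floor of 3 reads, which is 3.30e-05%, 4.06e-05% and 3.89e-05% of the mRNA reads. Intervals are exact (Clopper-Pearson) at 95% and, since the reads carry no molecular identifiers, cover counting error only. Pseudogenes were assigned by shared 50-base stretches, a step added after the data were seen. The scripts were tested on simulated data. Python 3.11.15, pandas 2.3.3 and scipy 1.17.1 were used. With 1 library per condition no test was made.

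The members, lists and alternatives were chosen with earlier results of these data known. Genes named were the 5 highest and 5 lowest in mean FPKM, the 3 highest and 3 lowest ratios of each comparison (at least 100 reads) with all members past 2-fold, the 6 highest and 4 most variable retained-intron shares, the 3 retained-intron and 3 coding transcripts most specific to each library, paralog pairs and genes of known role. Some items these rules name are not reported here. Other transcripts and family values were named after their values were seen. Alternatives were other totals, size factors, FPKM, coding transcripts only, other filters and, added later, gene families.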

Additional observations from a re-analysis of the deposited data

Results flagged for a closer look

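Signals outside the mRNA table were seen at 2 places. Among circRNAs, RNA circles detected by reads across a back-splice junction, 1 came from a member gene, an exonic circle of Rps14. It had 17 junction reads in mOC-ABs and 0 in BMM-ABs and pOC-ABs. All circRNAs together had 3413, 2380 and 4014 junction reads. The count of 17 is above the 3 reads that a count of 0 allows. In the lncRNA table, 33 entries overlapped 24 member genes and had 1518 reads (0.0339% of the table) in pOC-ABs, more than the 944 (0.0260%) of BMM-ABs or the 822 (0.0213%) of mOC-ABs. The entry with the most reads, in Rpsa with 234, 510 and 464, is annotated as the snoRNA Gm26448. Without it 32 lncRNAs had 710, 1008 and 358 reads (0.0195%, 0.0225% and 0.00930% of the table), and the next, in Rpl24, had 295, 430 and 6. Since it is not given whether counting used strand, reads of these lncRNAs and of the genes they overlap cannot be told apart.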

How the results depend on the processing

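No paired analysis was possible because there is 1 library per condition, and no library could be left out. The share of reads on the members was, in the order of the report, 2.29%, 2.34% and 2.61% of mRNA and lncRNA reads together, 3.64%, 4.54% and 4.57% of nuclear protein-coding reads, 3.002%, 3.51% and 3.65% with standard symbols only, 6.30%, 6.53% and 7.005% of summed FPKM, and 7.68%, 8.91% and 9.42% with pseudogenes. It was lowest in BMM-ABs and highest in mOC-ABs under each of these. The median log2 ratio was 0.095, 0.22 and 0.079 in G1, G2 and G3 with the mRNA and lncRNA total. It was 0.38 in G1 and 0.35 in G2 with the nuclear protein-coding total, 0.36 in G2 with size factors, 0.39 in G2 with the upper quartile, and 0.044 in G3 with families. The number of genes past 2-fold was 4 in G1 with the nuclear protein-coding total, 5, 7 and 4 with coding transcripts only and 0, 0 and 0 with families. Rpl15 turned to -0.19 in G1 with coding transcripts only, and Rpl21 turned to 0.32 in G2 and 0.039 in G3 as a family. The retained-intron share was 6.46%, 6.17% and 6.25% by FPKM, 11.2%, 8.06% and 10.04% as the median of the genes, 5.70%, 5.33% and 5.18% of all transcript types, and 5.75%, 5.24% and 5.42% without Rpl7-202 and Rpl15-206. With at least 100 reads, 46, 51 and 46 transcripts were past 2-fold, of fewer tested. Of 1014 values of 38 named genes under these alternatives, 826 lay within the counting interval of the reported value and 185 outside it. The other 3 reversed, a label given only where the reported ratio was past 2-fold. A change of sign in a smaller ratio was counted among the 826 or the 185. Rps2, for example, went from -0.41 in G2 to 0.025 as a family. Reads listed under copies limit every statement on a single gene, and the cause of the other shifts was not tested.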
